A study of Mus musculus with 5 samples.

Results

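The family described here comprises Hnrnph1, Hnrnph2, Hnrnph3 and Grsf1, the 4 genes most closely related to the RNA-binding proteins hnRNP-F and hnRNP-H that have a probe set on the array used. They were chosen by gene symbol in the array annotation, with earlier results of these data known. They are 4 of the 8251 genes that the array names by a single symbol. They are read by 6 probe sets, 1 each for Hnrnph1, Hnrnph2 and Hnrnph3 and 3 for Grsf1. No probe set carried the symbol of Hnrnpf itself, the gene overexpressed in the main pair of clones, so no level is given for it.

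The study hybridised polyadenylated RNA from 5 mouse cultures, each to its own Affymetrix array. A20 is labelled as a memory B cell line (1 array). The other 4 lines derive from AxJ, a plasma cell line, and carried a stably transfected construct: hnRNP-F in subclones B5 and D6 (2 arrays), hnRNP-H (1 array) or an empty vector (1 array). AxJ cultures were kept in log phase with 1 mg/ml of the selection drug G418, which the labels do not list for A20, and all cultures had 5% serum. The overexpressing clones were picked for high protein on western blots, and the hnRNP-F clones profiled had a lower secreted to membrane heavy chain ratio. Each line is 1 clone or culture, and no source used here names the promoter or species of the constructs. The hnRNP-H and empty vector lines together serve as the AxJ controls, and both comparisons below, of the hnRNP-F clones and of A20, share them.

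The proteins of this family bind short runs of guanosines in RNA through modified RNA recognition motifs and steer splicing and the choice of polyadenylation site. hnRNP-H and hnRNP-F are close paralogs that often act on the same sites. In mouse B lineage cells hnRNP-F is known for competing with the cleavage stimulation factor near the secretory polyadenylation site of the immunoglobulin heavy chain transcript, whose use separates the secreted from the membrane form of the antibody. The study asked how the balance of these factors relates to that choice. The question followed here is how the transcripts of the relatives stood when hnRNP-F or hnRNP-H was overexpressed, and in a B cell line compared with a plasma cell line.

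The DNA just before the transcription start is shown for each gene, because the first 3 genes shared an array-to-array profile and Grsf1 did not. All 4 genes matched a RefSeq entry (build GRCm38.p6). The 250 bases before the start are printed 5′ to 3′ on the gene's strand. Where RefSeq gives several starts (5 for Hnrnph1, 2 for Grsf1), the middle one is shown, or the upstream one of a pair. Capitals mark matches on either strand to the CCAAT box (CCAAT), GC box (GGGCGG), E-box (CACGTG), cyclic AMP element (TGACGTCA), ETS site (CCGGAAG) or NRF1 core (CGCATGCG), motifs that were picked with the sequences in view.
Hnrnph1, chr11:50377547-50377796, plus strand: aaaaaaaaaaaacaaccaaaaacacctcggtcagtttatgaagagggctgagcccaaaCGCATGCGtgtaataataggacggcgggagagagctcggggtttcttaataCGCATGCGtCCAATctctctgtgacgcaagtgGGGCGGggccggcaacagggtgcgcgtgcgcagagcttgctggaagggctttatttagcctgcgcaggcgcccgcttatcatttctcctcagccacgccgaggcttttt
Hnrnph2, chrX:134600929-134601178, plus strand: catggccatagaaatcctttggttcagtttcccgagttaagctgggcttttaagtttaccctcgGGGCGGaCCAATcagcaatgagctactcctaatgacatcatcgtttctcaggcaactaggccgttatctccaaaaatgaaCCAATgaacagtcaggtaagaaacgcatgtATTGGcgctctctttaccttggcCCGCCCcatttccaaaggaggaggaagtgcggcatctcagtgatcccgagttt
Hnrnph3, chr10:63023850-63024099, minus strand: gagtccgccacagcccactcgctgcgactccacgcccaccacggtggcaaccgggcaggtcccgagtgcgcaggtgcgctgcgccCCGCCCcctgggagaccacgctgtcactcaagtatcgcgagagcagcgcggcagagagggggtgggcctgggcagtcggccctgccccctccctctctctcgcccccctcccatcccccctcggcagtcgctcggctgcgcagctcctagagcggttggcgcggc
Grsf1, chr5:88676172-88676421, minus strand: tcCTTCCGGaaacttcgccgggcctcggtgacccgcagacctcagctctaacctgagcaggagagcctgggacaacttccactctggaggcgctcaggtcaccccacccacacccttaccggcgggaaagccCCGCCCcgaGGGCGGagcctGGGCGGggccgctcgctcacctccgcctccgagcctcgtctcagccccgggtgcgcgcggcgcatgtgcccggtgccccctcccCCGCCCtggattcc

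The matches depend on the start shown. At another start Hnrnph1 had 3 NRF1 cores and 0 GC boxes, and at its other start Grsf1 had 0 GC boxes and 1 CCAAT box. In the windows shown, the GC box was the 1 motif present in all 4, with 4 matches in Grsf1, 2 in Hnrnph2 and 1 each in Hnrnph1 and Hnrnph3. It occurred in 32.7% of all 32851 such RefSeq windows. The CCAAT box matched once in Hnrnph1 and 3 times in Hnrnph2 (33.8% of all windows), but it was not among the letters of the Hnrnph3 and Grsf1 windows shown. The 2 NRF1 core matches in Hnrnph1 (1.55% of windows) and the ETS match in Grsf1 (6.91%) were each in 1 gene, and the E-box (6.02%) and cyclic AMP element (1.55%) matched in none of the 4. Guanosine and cytosine made up 54.0% of the Hnrnph1 window, 48.4% for Hnrnph2, 73.6% for Hnrnph3 and 72.0% for Grsf1. None of the 6 motifs was present in the windows shown of the first 3 genes and missing from that of Grsf1. With the other Grsf1 start, which had 0 GC boxes, the GC box would be such a motif. Any part of these motifs in the profiles was not tested.

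Values below are intensities after quantile normalisation unless called deposited, and differences were taken between values of log2(intensity + 6.53), which understates changes of dim probe sets. Of 12488 probe sets, 9107 exceeded an intensity of 21.8 on at least 1 array and were tested. The 4 probe sets 93990_at (Hnrnph1), 94832_at (Hnrnph2), 104231_at (Hnrnph3) and 96684_at (Grsf1) were among them. The other 2 Grsf1 probe sets were too dim and are given at the end of the account of that gene. Hnrnph1, Hnrnph2 and Hnrnpf are near-identical along parts of their sequence, the probe sequences were not analysed here, and how far a relative adds to a reading was not tested.

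The labels were checked against marker genes. Of 11 plasma cell markers tested, 11 lay below 0 in the difference of A20 from the AxJ controls and 7 were lower with an adjusted p under 0.05, as were 2.99% of all probe sets. Their summed intensity was 4041 in A20 against 20040 to 27090 in the AxJ lines. Of 14 B cell markers with a probe set, 12 exceeded the floor. Of these 12, 11 lay above 0 and 8 were higher by the same threshold, as were 2.9% of all probe sets. Their summed intensity was 12070 in A20 against 2073 to 4042 in the AxJ lines. Spib, Bcl6, Cd22 and H2-Aa, all among the 8, were under the floor on every AxJ array. They entered the test through A20 alone, so their calls add no support. Likewise, the plasma cell markers Prdm1 and Fkbp11 were under the floor in A20 and entered through the AxJ arrays. Of the T cell, myeloid, stromal and erythroid markers, 2 of 9, 9 of 10, 7 of 8 and 4 of 5 with a probe set exceeded the floor, and none of them passed the test in either comparison. The myeloid sum was 424.5 in A20, 632.3 in B5, 528.4 in D6, 489.2 in hnRNP-H and 484.3 in empty vector. The T cell sum was 104.9 in A20 against 97.7 to 180.3 in the AxJ lines, the stromal sum 368.4 against 523.8 to 641.7, and the erythroid sum 173.4 against 140 to 208.8. The part of other cells in the values below was not tested. The arrays also differed in how the 5′ Gapdh probe set compared with the 3′ one, which falls when RNA is degraded or copied short. This Gapdh ratio was 0.384 in A20, 0.181 in B5, 0.683 in D6, 0.866 in hnRNP-H and 0.212 in empty vector.

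In the hnRNP-F clones all 4 genes read below the mean of the AxJ controls. None of the differences passed the test, and for Hnrnph3 and Grsf1 the clones and controls overlapped. Hnrnph1 was lowest relative to the controls, followed by Hnrnph2, Hnrnph3 and Grsf1. The test passed 1 probe set in all, that of the ribosomal protein gene Rpl41. That is 0.011% of the probe sets tested. The median log2 difference of the 4 genes was -0.36, against 0.00505 over all probe sets tested, and a difference below 0 was seen for 49.4% of those.

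Hnrnph1 (gene ID 59013) encodes hnRNP-H, the protein overexpressed in 1 of the lines, and is known for its part in exon choice and polyadenylation. Its probe set read 1523 in A20, 727 in clone B5, 984 in clone D6, 1060 in the hnRNP-H line and 1454 in empty vector. Both hnRNP-F clones lay below both controls. The means were 855 ± 182 in the clones and 1257 ± 279 in the controls (SD, n = 2 each), a ratio of 0.683 on the fitted scale. The log2 difference was -0.55 (SE 0.28, 95% interval -1.18 to 0.08, limma adjusted p = 0.790).

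The hnRNP-H line did not read higher than empty vector at this probe set, but 0.45 lower on the log2 scale. With 1 array a side this difference has no test, and a construct without the sequence the probes match would not be read, so the value checks neither the label nor the overexpression. Because the hnRNP-H line is itself manipulated at this gene, the clones were also compared with empty vector alone. The log2 difference of Hnrnph1 was then -0.78. The spread in that fit came from the hnRNP-F clones alone, with 1 empty vector array as reference, so only the difference is given. Clone B5 was 0.99 below empty vector and clone D6 was 0.56 below it.

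Hnrnph2 (gene ID 56258) is the X-linked paralog whose protein is nearly the same as hnRNP-H. It read 70.5 in A20, 32.1 in clone B5, 38.9 in clone D6, 45.9 in the hnRNP-H line and 52.9 in empty vector. The order of the arrays was that of Hnrnph1, and again both clones lay below both controls. The mean was 35.5 ± 4.84 in the clones and 49.4 ± 4.92 in the controls (SD, n = 2 each), with a log2 difference of -0.41 (SE 0.38, 95% interval -1.29 to 0.46, adjusted p = 0.830). At 32 to 70 the probe set was dim, so the added 6.53 shrinks its differences more than those of Hnrnph1.

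Hnrnph3 (gene ID 432467) encodes a shorter relative, hnRNP 2H9, that takes part in splicing. It read 221 in A20, 96.6 in clone B5, 132 in clone D6, 131 in the hnRNP-H line and 152 in empty vector. Clone B5 was the one low AxJ array, while D6 and the hnRNP-H line were nearly equal, so the groups overlapped. As deposited, D6 read 134.0 and the hnRNP-H line 134.1, which puts both clones just below both controls. The log2 difference was -0.30 (SE 0.31, 95% interval -1.02 to 0.41, adjusted p = 0.845).

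Grsf1 (gene ID 231413) encodes the G-rich sequence factor, a family member with forms in the cytosol and in mitochondria, where it handles RNA in granules near the mitochondrial genome. Its main probe set read 201 in A20, 252 in clone B5, 311 in clone D6, 336 in the hnRNP-H line and 289 in empty vector. The clones lay on both sides of empty vector, and the log2 difference was -0.15 (SE 0.28, 95% interval -0.79 to 0.49, adjusted p = 0.930). Grsf1 thus had the smallest difference from the controls of the 4 genes.

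Of these 4 genes, 2 had both clones below both controls, against 19.4% of all probe sets tested. As deposited and after median scaling the count was 3 of 4, since Hnrnph3 joined, against 18.8% and 18.9%. With 2 arrays against 2, no exact permutation test of a single value can give a two-sided p below 0.333. An unadjusted limma p under 0.05 was reached by none of the 4 genes and by 5.79% of all probe sets.

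**Figure D1:**
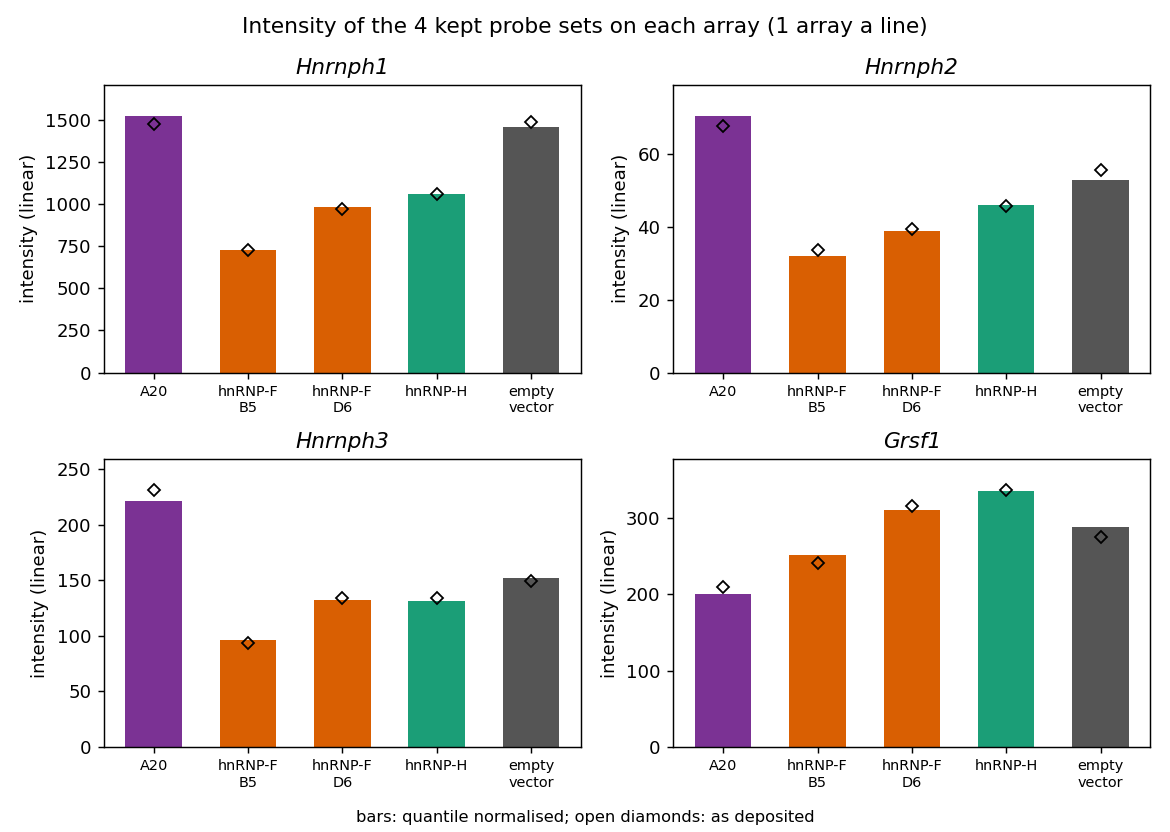
Linear intensity of the kept probe set of each gene on each of the 5 arrays, with bars for quantile-normalised values, open diamonds for deposited values and 1 array a line, so that no error bar can be drawn. Hnrnph1, Hnrnph2 and Hnrnph3 are lowest in clone B5 and highest in A20, apart from the deposited Hnrnph1 value, which is a little higher in empty vector (1487) than in A20 (1477), and Grsf1 is lowest in A20 (201) and highest in the hnRNP-H line (336).

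Among the AxJ lines, clone B5 held the lowest value for 4 of 4 genes, which was also the case for 26.1% of all probe sets, and 4 of 4 genes were higher in D6 than in B5, as were 50.3% of all. The log2 difference of D6 from B5 was 0.43 for Hnrnph1, 0.24 for Hnrnph2, 0.43 for Hnrnph3 and 0.29 for Grsf1. For Hnrnph3 and Grsf1 it was larger than the difference of the clones from the controls. Without B5 the differences of the remaining clone D6 from the controls were -0.33 for Hnrnph1, -0.30 for Hnrnph2, -0.09 for Hnrnph3 and -0.00314 for Grsf1.

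The controls differed as well. The hnRNP-H line had lower values than empty vector for Hnrnph1, Hnrnph2 and Hnrnph3, with log2 differences of -0.45, -0.18 and -0.21, and Grsf1 was higher by 0.21. After median scaling the Hnrnph3 difference was only -0.0033. A lower value in hnRNP-H cells was seen for 51.3% of all probe sets. For Hnrnph1 and Hnrnph2 the 4 AxJ arrays thus ran upward from B5 through D6 and hnRNP-H to empty vector, an order shared by 8.55% of all probe sets. Leaving out empty vector brought the Hnrnph1 difference to -0.32, and leaving out the hnRNP-H line brought it to -0.78.

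**Figure D2:**
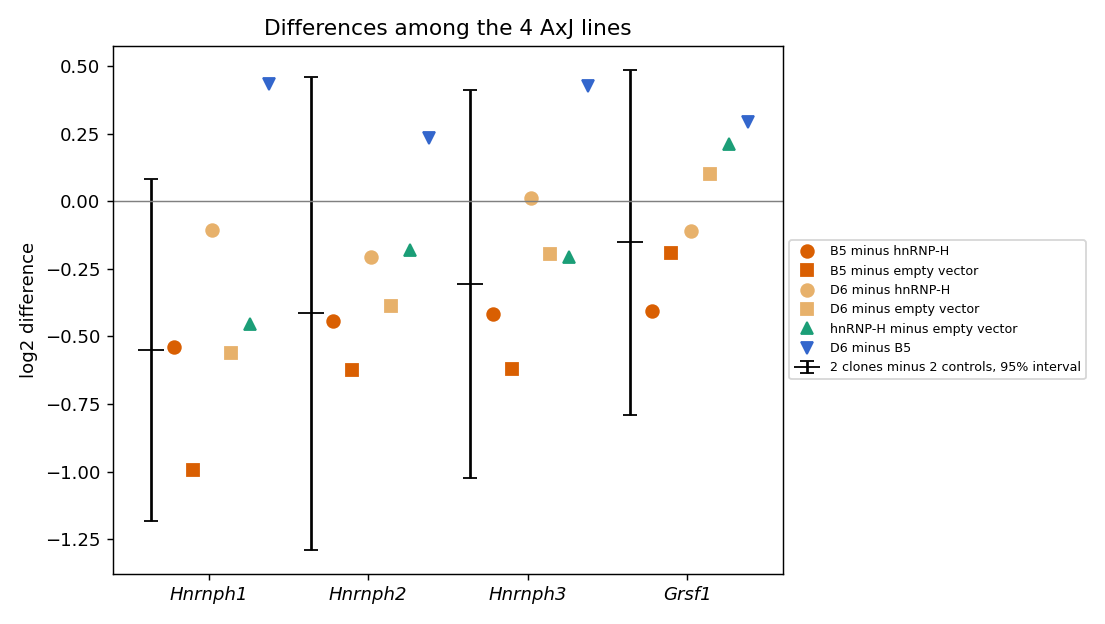
Log2 differences between pairs of AxJ arrays for each gene (coloured points, 1 array a side) and the limma difference of 2 hnRNP-F clones from 2 controls with its 95% interval (black). All 4 intervals include 0, and B5 minus empty vector (-0.99 for Hnrnph1) lies well below D6 minus hnRNP-H (-0.11).

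The AxJ arrays fall into pairs of like Gapdh ratio, each with 1 hnRNP-F clone and 1 control. Between B5 and empty vector, the pair of low ratio, Hnrnph1 differed by -0.99, Hnrnph2 by -0.62, Hnrnph3 by -0.62 and Grsf1 by -0.19. Between D6 and hnRNP-H, the pair of high ratio, the values were -0.11, -0.21, 0.01 and -0.11 in the same order of genes. The difference was thus further below 0 in the low-ratio pair for each of the 4 genes, and whether the pairs differ was not tested. For Grsf1 the arrays of high ratio, hnRNP-H (336) and D6 (311), both read above those of low ratio, empty vector (289) and B5 (252), a split shared by 18% of all probe sets. The part of RNA quality in it was not tested.

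In A20 the first 3 genes stood higher and Grsf1 lower than in the AxJ controls, and again none passed the test, which passed 5.89% of all probe sets. The log2 difference of Hnrnph3 was 0.62 (SE 0.38, adjusted p = 0.446 in limma). Hnrnph2 was higher by 0.46 (SE 0.47, adjusted p = 0.668) and Hnrnph1 by 0.29 (SE 0.34, adjusted p = 0.716). Grsf1 was lower, with a difference of -0.62 (SE 0.34, 95% interval -1.40 to 0.17, adjusted p = 0.385). The median of the 4 genes was 0.38, against -0.04 over all probe sets tested.

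A20 lay above all 4 AxJ lines for 3 of the 4 genes, against 26% of all probe sets, and below all 4 for Grsf1, against 28.9%. For Hnrnph1 the margin over empty vector was 0.07 on the log2 scale, and as deposited A20 (1477) lay just below empty vector (1487). The gap was wider to the hnRNP-H line (0.52) and widest to clone B5 (1.06). For Hnrnph3 the A20 array stood 0.52 above empty vector and 1.14 above B5, and for Hnrnph2 0.37 and 1.00. For Grsf1 the difference from B5, the nearest AxJ line, was -0.32, and after median scaling A20 lay inside the AxJ range.

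A difference above 0 in A20 was seen for 47.8% of all probe sets and an unadjusted p under 0.05 for 19.3%. None of the 4 genes reached such a p. Scaling moved the median of all A20 differences, from -0.04 under quantile normalisation to -0.12 under the authors' scaling and 0.08 under median scaling. Relative to that median, Hnrnph1 stood at 0.33, 0.36 and 0.38, Hnrnph3 at 0.66, 0.81 and 0.83, and Grsf1 at -0.58, -0.40 and -0.38, in the same order of scalings. The directions were thus kept under all 3 scalings. A20 is 1 array, assumed to vary like the AxJ arrays. The Hnrnph1 difference was 0.07 without the hnRNP-H line and 0.51 without empty vector.

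The 2 dim probe sets of Grsf1 lay under the floor on every array. As deposited, 161191_i_at read 6.76 in A20, 18.0 in B5, 3.40 in D6, 3.96 in hnRNP-H and 3.22 in empty vector, and 161453_r_at read 11.6, 5.10, 6.12, 10.4 and 9.75 on the same arrays. Tested without the filter, their log2 differences between the clones and the controls were 0.60 and -0.50, and those between A20 and the controls 0.64 and 0.40, all with adjusted p of at least 0.696. In A20 both therefore had the opposite sign to the main probe set (-0.62).

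Across the 5 arrays the profiles of Hnrnph1, Hnrnph2 and Hnrnph3 lay close together. The distance used was the mean absolute difference of log2 values, each centred on its gene's mean over the 5 arrays. It was 0.11 between Hnrnph1 and Hnrnph2, 0.13 between Hnrnph1 and Hnrnph3, and 0.09 between Hnrnph2 and Hnrnph3. Grsf1 was 0.48 from Hnrnph1, 0.42 from Hnrnph2 and 0.43 from Hnrnph3. Among 6626 genes, Hnrnph2 was the 44th nearest to Hnrnph1 and Hnrnph3 the 69th, while Grsf1 was at place 3409.

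The nearest genes were not of the family. For Hnrnph1 they were Anxa7, an annexin (distance 0.03), Fnbp4 (0.04) and Anapc4, a subunit of the anaphase-promoting complex (0.04). Anxa7 read 85.9 in A20, 36.4 in B5, 52.1 in D6, 60.1 in hnRNP-H and 79.7 in empty vector, the order seen for Hnrnph1. For Hnrnph2 they were Kpna3, a nuclear import adaptor (0.02), Cipc, a circadian regulator (0.04), and Sfxn1, a mitochondrial serine carrier (0.05). For Hnrnph3 they were Lta4h (0.03), the apoptosis gene Bid (0.04) and Fam50b (0.05), and for Grsf1 the nucleolar protein gene Tbl3 (0.03), the isoleucyl-tRNA synthetase gene Iars (0.04) and Adi1 (0.05). With 5 arrays such likeness is a description of these samples and says nothing of shared function.

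**Figure D3:**
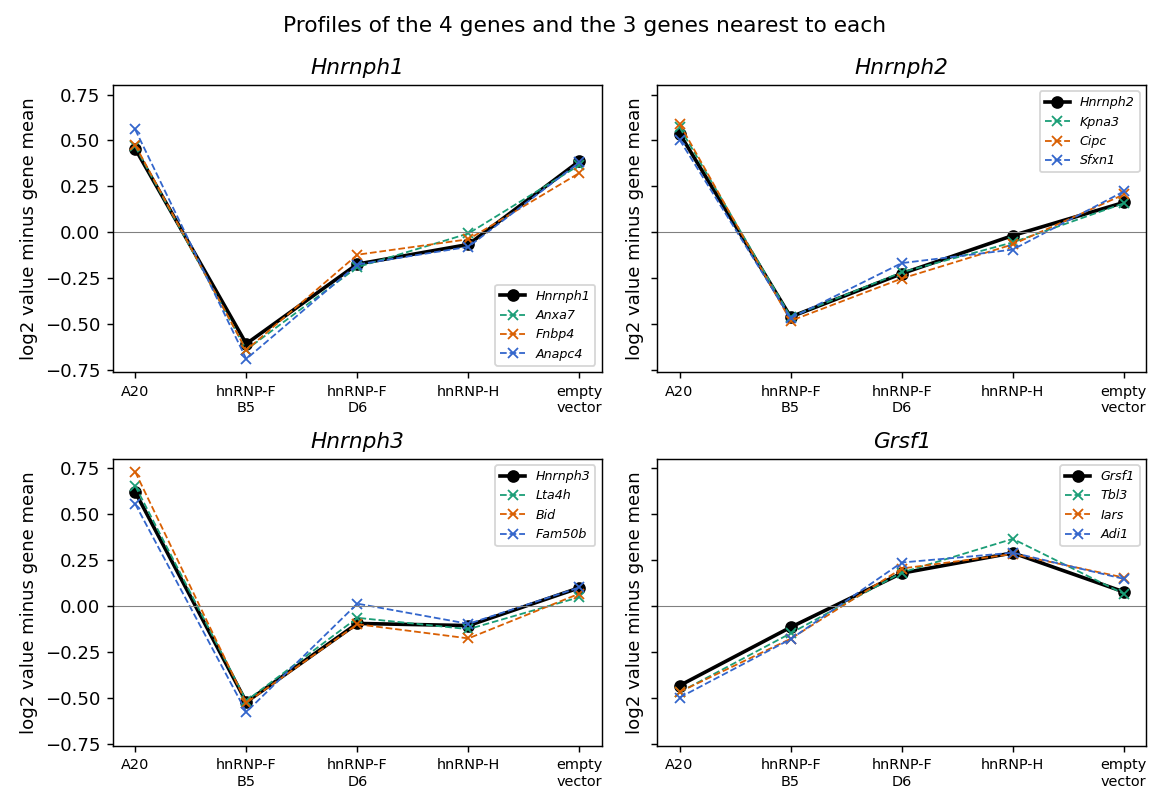
Log2 value of each gene minus its mean over the 5 arrays (black) with the 3 nearest genes (dashed), each point being 1 array. Hnrnph1, Hnrnph2 and Hnrnph3 share a profile with a trough in clone B5 and a peak in A20, and Grsf1 has its trough in A20.

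Other hnRNP proteins, which package and process nascent RNA, mostly read below the controls in the hnRNP-F clones. Of 21 genes tested, 0 passed, 19 lay below 0, against 49.4% of all probe sets, and the median log2 difference was -0.29. Hnrnpr read 172 in B5 and 262 in D6, against 407 in hnRNP-H and 470 in empty vector (log2 difference -1.02, SE 0.30, adjusted p = 0.790). Hnrnpk, a poly(C)-binding member, read 239 and 250 in the clones, against 411 and 546 in the controls (-0.94, SE 0.27, adjusted p = 0.790). The upward order B5, D6, hnRNP-H, empty vector held for 9 of the 21, or 42.9%, against the 8.55% of all probe sets. Lower values in hnRNP-H cells than with empty vector were read for 18 of 21, against 51.3% of all probe sets. Higher values in D6 than in B5 were read for 17 of 21, against 50.3%.

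In A20 that list had no common direction, with 11 of 21 above 0, against 47.8% of all probe sets, and a median of 0.05. Hnrnpll, a regulator of alternative splicing in lymphocytes, was the 1 gene that passed (2.99% of all probe sets were lower in A20 past the threshold). It fell to 120 in A20, against 424 in the hnRNP-H line and 528 in empty vector, by 1.93 on the log2 scale (SE 0.33, adjusted p = 0.0149). The call was lost without the intensity trend of the variance model (adjusted p = 0.0974).

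Factors of cleavage and polyadenylation, the machinery with which hnRNP-F and hnRNP-H compete or cooperate, were mixed in the clones. Of 17 genes tested none passed, 9 lay below 0, against 49.4% of all probe sets, and the median was -0.12. Pcf11, which links cleavage to termination, read 22.4 in B5 and 22.9 in D6, against 70.0 in hnRNP-H and 104 in empty vector (-1.65, SE 0.39, adjusted p = 0.790). Cstf2, the RNA-binding subunit of the cleavage stimulation factor, read 403 and 504 in the clones, against 623 and 770 in the controls (-0.61, SE 0.27, adjusted p = 0.790). Both genes had both clones below both controls, as did 7 of the 17 and 19.4% of all probe sets. Both clones lay above both controls for 4 of the 17, a direction whose share over all probe sets was not counted.

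In A20, 12 of the 17 lay above 0, against 47.8% of all probe sets, with a median of 0.53. Cpsf4, a subunit of the cleavage and polyadenylation specificity factor, passed (2.9% of all probe sets were higher past the threshold). It read 647 in A20, against 233 in hnRNP-H and 125 in empty vector (1.88, SE 0.45, adjusted p = 0.0495). This call was lost without empty vector (adjusted p = 0.0990), without B5 (0.0694) and without D6 (0.0801).

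Genes of mitochondrial RNA handling, where Grsf1 acts, were mixed in A20. Of 13 genes tested none passed, 7 lay below 0 and 6 above it, against 47.8% of all probe sets above it. The median was -0.21. The A20 value lay below all 4 AxJ lines for 6, against 28.9% of all probe sets, and above them for 4, against 26%. Rexo2, an exonuclease for short RNA, read 174 in A20, against 617 in hnRNP-H and 421 in empty vector (-1.51, SE 0.39, adjusted p = 0.0617), and Hsd17b10, a subunit of the mitochondrial RNase P, read 203 against 403 and 358 (-0.89, SE 0.33, adjusted p = 0.183). Rexo2 passed without empty vector (adjusted p = 0.0491) and with a block for the pairs of like Gapdh ratio (0.0395). In the clones none passed. There 9 of 13 lay above 0 and 4 below it, against 49.4% of all probe sets below it. The median was 0.13, with Hsd17b10 at 0.47 (SE 0.27, adjusted p = 0.795) and Pnpt1, a mitochondrial RNA-degrading enzyme, at -0.70 (SE 0.35, adjusted p = 0.790).

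Helicases that act on G-quadruplexes, structures formed by the guanosine runs that the family binds, were compared by the main probe set of each gene. In the clones 7 of 7 lay below 0, against 49.4% of all probe sets, with a median of -0.29, and none passed. Dhx36 was counted among them at -0.0039. Further probe sets of these genes went both ways, at 0.77 and -1.45 for Ddx3x, 0.11 for Ddx1 and -0.77 for Ddx17. Ddx21, a nucleolar helicase, read 500 in B5 and 496 in D6, against 946 in hnRNP-H and 1305 in empty vector (-1.15, SE 0.26, adjusted p = 0.790), while Dhx9 differed by -0.33 (SE 0.27, adjusted p = 0.826). In A20 2 of 7 lay above 0, against 47.8% of all probe sets, and 5 of 7 lay below it. The median was -0.24 and none passed. Ddx3x was counted among the 5 at -0.02, with further probe sets at 0.44 and -0.77. In A20 Ddx21 differed by -0.89 (SE 0.32, adjusted p = 0.171) and Ddx5 by -0.83 (SE 0.34, adjusted p = 0.225).

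**Figure D4:**
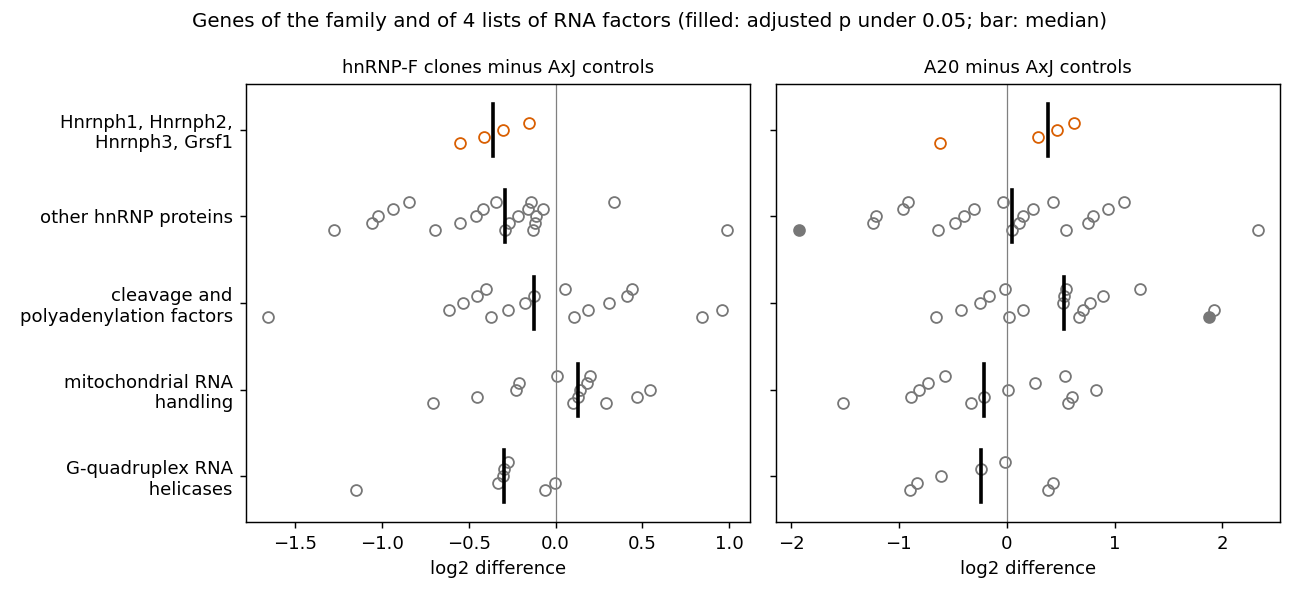
Log2 differences of the 4 family genes (orange) and of 4 lists of RNA factors (grey) for the hnRNP-F clones (left) and A20 (right) against the AxJ controls, each point being the main probe set of 1 gene. Filled points have an adjusted p under 0.05 and vertical bars mark medians, which lie at -0.36 for the family and -0.29 for other hnRNP proteins in the clones, and at 0.38 and 0.05 in A20.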

How the data were processed

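Biotin-labelled messenger RNA of 5 cultures was measured on 1 array each. Each probe set has 1 deposited intensity on a linear scale, scaled by the authors so that the mean of each array, with 2% trimmed at each end, was about 150.1, per the deposited values. The software is not given in the sources used here. The number of arrays limits the precision.

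The 66 control probe sets of the maker entered no test. Symbols came from the array annotation, updated by gene ID (10855 probe sets with 1 symbol, 396 with several, 1237 with none). Because the A20 median deviated from the mean of the array medians by -11.55%, beyond a tolerance of 10%, intensities were quantile normalised. The added constant 6.53 is the 20th and the floor 21.8 the 40th percentile of all values. limma 3.58.1 in R 4.3.3 fitted 3 coefficients (hnRNP-F clones, AxJ controls, A20) with an intensity trend. The fit has 2 residual degrees of freedom and a prior of 6.46. P-values are two-sided and Benjamini-Hochberg adjusted over 9107 probe sets, with a threshold of 0.05. The labels do not mention repeat cultures, and p-values here reflect the spread among these arrays alone. That spread lies between the 2 hnRNP-F clones and between the hnRNP-H and empty vector lines. Differences of clone, construct and technical handling cannot be told apart in it. The procedure was tested on simulated data, but no outcome of that is given here and it lends the results no support. Pairs of single arrays were not tested.

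A gene's main probe set is the one of highest mean. Named were all members, the 3 nearest profiles of each, and from each list up to 4 genes that passed, otherwise the 2 of largest statistic. Members, lists and rules were chosen with earlier results of these data known, the Gapdh pairing included. Promoters came from RefSeq.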

Additional observations from a re-analysis of the deposited data

How the results depend on the processing

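For the 4 genes of the family, 13 alternatives kept the direction and the side of the threshold in both comparisons with a test. Over these, Hnrnph1 ranged from -0.78 to -0.32 in the hnRNP-F clones and from 0.07 to 0.51 in A20, Hnrnph2 from -0.53 to -0.30 and from 0.37 to 0.59, Hnrnph3 from -0.52 to -0.09 and from 0.52 to 0.91, and Grsf1 from -0.30 to -0.00314 and from -0.73 to -0.30. The lowest adjusted p of any of them was 0.234. In the clones the count of probe sets that passed was 1, but 0 without the filter on low values (679 with an unadjusted p under 0.05 in limma) and 0 without the intensity trend (444), and 1 to 3 when each of the 4 AxJ arrays in turn was left out and the rest normalised again. In A20 it was 536, but 311 without the filter, 145 without the trend and 284 to 747 with an AxJ array left out, 340 without B5 and 284 without D6. The cause was not tested, other than that the filter sets how many probe sets are tested. Cpsf4 also lost its A20 call with a pseudocount of 1 (adjusted p = 0.0526), without the filter (0.104) and without the trend (0.175), and Hnrnpll without the trend (0.0974), while Rexo2 passed with a block for the Gapdh pairs (0.0395). The labels give no pairing of the arrays, and the main fit used none. The Gapdh pairs of the blocked fit were formed from the values, not from the labels. The design of 5 single cultures limits every comparison.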
